A study of Mus musculus with 27 samples.

Results

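The 9 plexin genes of the mouse and semaphorin 5A (Sema5a) were followed in cortex RNA of 5xFAD mice after an intracerebral injection of vehicle, R33 or R55. The rows were taken by symbol, compared in lower case (plxna1, plxna2, plxna3, plxna4, plxnb1, plxnb2, plxnb3, plxnc1, plxnd1 and sema5a), from a table of 26264 gene symbols, and all 10 were found and passed the filter on low levels. All animals of the 3 groups carried the 5xFAD genotype, human transgenes with familial Alzheimer's disease changes that are driven by the neuronal Thy1 promoter, on a C57BL6 background. They were female and 16 weeks old. A solution of R33 or R55, small molecules meant to stabilise the retromer sorting complex, was infused at 10 mM into the lateral parietal associative cortex of 1 hemisphere, and vehicle mice received the DMSO and cyclodextrin solution without compound (0 mM). After 24 h a block of cortex was taken around the injection site and from the same place in the contralateral hemisphere. The libraries used here are from both hemispheres of 4 vehicle mice (J, L, M and AH), 5 R55 mice (P, Q, R, AA and AB) and 4 R33 mice (K, N, O and AD), with the injected hemisphere alone of R33 mouse AE, whose other side was not used here, 27 libraries in all. No mouse without the transgenes is among these groups.

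Plexins are the cell-surface receptors of semaphorins, a family of guidance cues that steer axons, dendrites and migrating cells. When a semaphorin binds, the GTPase-activating domain inside the cell acts on Ras family proteins, and the local cytoskeleton and adhesion are taken down. In the adult brain the same receptors take part in the shaping of synapses and spines and in contacts between neurons, glia and vessels. Semaphorin 5A is a membrane-bound cue with thrombospondin repeats, and receptors described for it include plexin A1, A2, A3 and B3.

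The start regions of Sema5a, Plxna2 and Plxnd1 are printed because the first 2 had lower mean levels in both drug groups while the means of Plxnd1 lay between 15.8 and 16.5 FPKM in all groups. RefSeq promoters (GRCm38.p6, 250 bases before to 50 bases after the start) were at hand for 8 of the 10 genes. Capitals mark GC boxes, GGGCGG on either strand. Sema5a lies at chr15:32244563-32244862 (plus strand), Plxna2 at chr1:194619579-194619878 (plus strand) and Plxnd1 at chr6:115994956-115995255 (minus strand).
Sema5a: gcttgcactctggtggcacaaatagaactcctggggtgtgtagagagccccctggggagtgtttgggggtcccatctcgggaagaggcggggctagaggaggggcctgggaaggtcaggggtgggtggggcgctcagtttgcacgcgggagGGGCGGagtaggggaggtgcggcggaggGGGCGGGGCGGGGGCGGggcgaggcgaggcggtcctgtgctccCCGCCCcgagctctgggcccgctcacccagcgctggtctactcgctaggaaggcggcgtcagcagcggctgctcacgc
Plxna2: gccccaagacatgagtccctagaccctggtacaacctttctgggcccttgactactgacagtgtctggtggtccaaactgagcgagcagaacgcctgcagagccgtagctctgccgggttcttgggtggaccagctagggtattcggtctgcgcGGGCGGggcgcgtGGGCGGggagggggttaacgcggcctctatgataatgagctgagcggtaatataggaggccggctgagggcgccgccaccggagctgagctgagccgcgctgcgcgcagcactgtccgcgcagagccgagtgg
Plxnd1: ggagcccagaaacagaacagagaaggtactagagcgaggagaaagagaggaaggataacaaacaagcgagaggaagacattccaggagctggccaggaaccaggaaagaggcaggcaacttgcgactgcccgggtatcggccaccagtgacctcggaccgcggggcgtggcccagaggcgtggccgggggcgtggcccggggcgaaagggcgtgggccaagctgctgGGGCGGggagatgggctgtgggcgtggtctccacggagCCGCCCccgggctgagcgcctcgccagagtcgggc
The Sema5a window held 5 GC boxes, 2 of which overlap each other, at a GC content of 71.3%. The Plxna2 and Plxnd1 windows held 2 each, at 64.7% and 67%. Of the 9 plexin and Sema5a windows in the table (Plxnb2 has 2), 8 held a GC box, against 35.7% of all 32851 promoters, whose median GC content was 52.7%. No window of these genes held the TATA letters TATAAA (in 13.6% of all promoters), the letters CCAAT (37.4%), the E-box CACGTG (7.15%) or the cAMP element TGACGTCA (1.79%) on either strand. These matches describe letters, not sites in use.

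Levels are given as FPKM, fragments scaled by transcript length and by the library's total, so that genes can be compared per length. Libraries held 15932196 to 38077026 counted fragments (median 27441308), and each gene rested on 220 fragments or more in every library. The genes are long, from 6022 bp for Plxnb3 to 12586 bp for Plxna4, and 85.6% of all tested genes were shorter than the shortest of them. The injected library of R33 mouse AD stood apart: its mean Pearson correlation with the other libraries was 0.9615, against 0.9730 or more for each other library. It had the lowest value of all 27 libraries for 9 of the 10 genes, as it did for 43.3% of tested genes within the same range of lengths and 13.6% of all tested genes. The main results that change without this mouse are given without it as well.

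Over the 14 mice, with the hemispheres averaged (AE by its injected side alone), Plxnd1 had the highest mean level, at 16.2 ± 2.64 FPKM (SD, n = 14). It encodes the receptor of semaphorin 3E, known from blood vessels and thalamocortical wiring. Plxna1, a receptor for class 3 semaphorins together with neuropilins, came next at 15.5 ± 2.64 FPKM. Then followed Plxnb1, the main receptor of semaphorin 4D, at 13.4 ± 2.91 FPKM, Plxna2 at 12.2 ± 2.11 and Plxnb2, a receptor of class 4 semaphorins found in glia and precursors, at 11.8 ± 1.54. Plxna4, which takes signals from semaphorin 3A and class 6 semaphorins in neurons, had 9.74 ± 2.34 FPKM. Plxnc1, the receptor of semaphorin 7A, had 6.84 ± 1.37, Sema5a 4.77 ± 1.82, Plxnb3 3.89 ± 1.02 and Plxna3 2.49 ± 0.399 FPKM. Neighbours in this order were compared in pairs by an exact sign-flip permutation test over mice, two-sided, with p adjusted over the 9 pairs. Plxnb2 and Plxna4 differed (adjusted p = 0.011, higher in 12 of 14 mice), as did Plxna4 and Plxnc1 (5.5e-04, from a p of 1.2e-04, the smallest that 14 mice allow, 14 of 14), Plxnc1 and Sema5a (0.00696, 12 of 14), and Plxnb3 and Plxna3 (5.5e-04, 14 of 14). Neighbours among the 5 most abundant genes did not pass (the smallest adjusted p of these permutation tests was 0.0606, for Plxna1 and Plxnb1), and neither did Sema5a and Plxnb3 (adjusted p = 0.101). Between mice Sema5a varied most, with a coefficient of variation of 38.2%, and Plxnb2 least, with 13%.

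**Figure D1:**
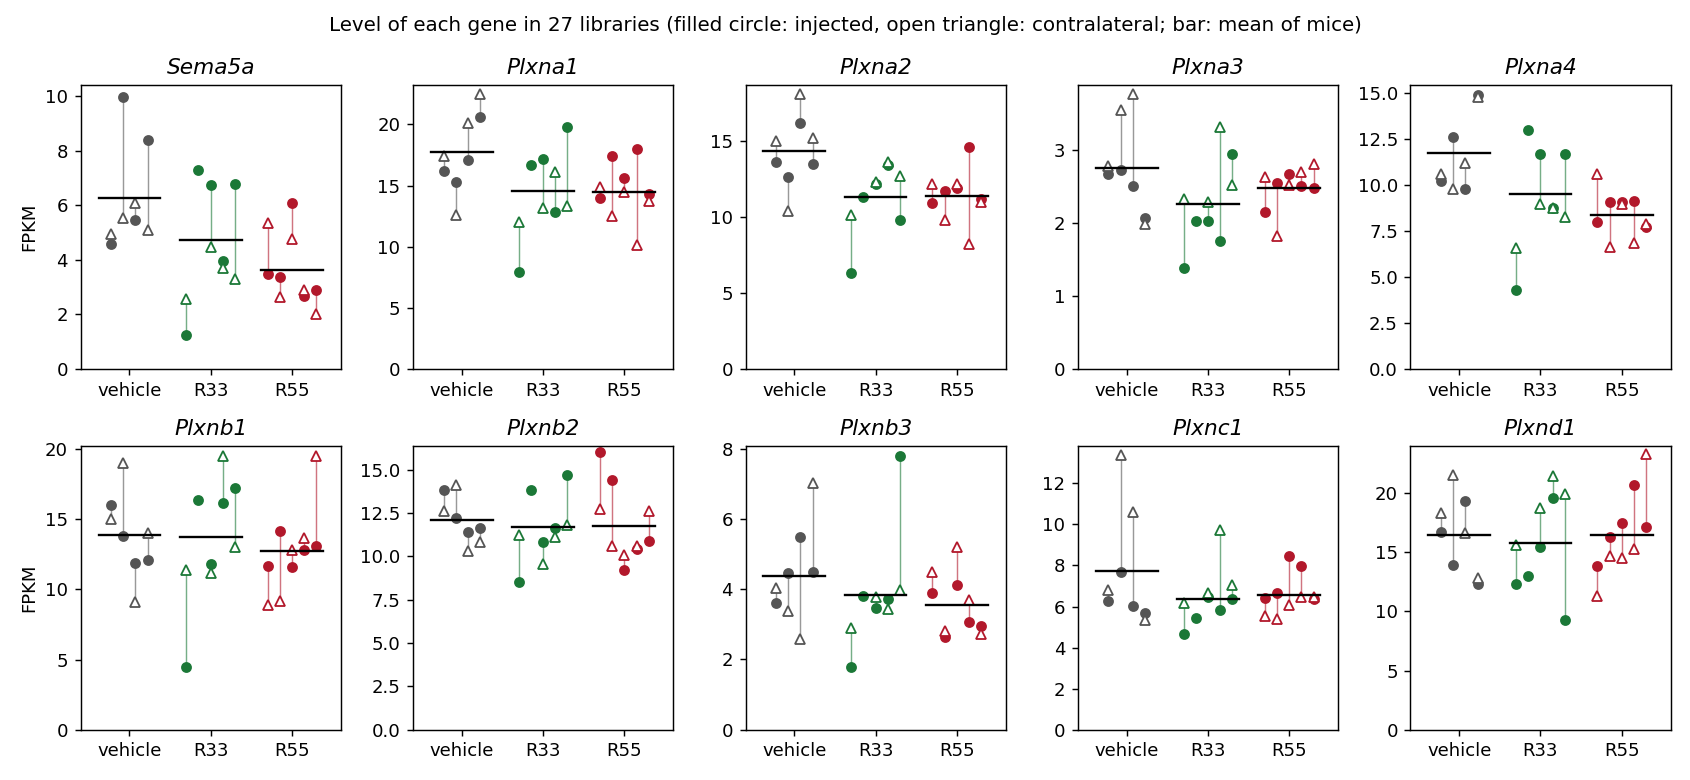
FPKM of Sema5a and the 9 plexin genes in 27 libraries. Each column of symbols is 1 mouse, with the injected hemisphere as a filled circle, the contralateral as an open triangle and a line between them, and the bar is the mean of the mice. The R55 mice lie below the vehicle bar for Plxna4, while the groups overlap for the B class, Plxnc1 and Plxnd1, and the injected library of R33 mouse AD is the lowest point of all 27 in 9 panels.

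The first comparison asks whether the genes differed between R55 and vehicle mice. Of the 10 genes, 9 had a log2 fold change below 0, with a median of -0.19, where 39.8% of all tested genes were below 0, and 4 (Sema5a, Plxna4, Plxna2 and Plxna1) had an unadjusted p under 0.05. None passed at an adjusted p under 0.05, where 0.00771% of the 12976 tested genes did, 1 gene. Lower levels at an unadjusted p under 0.05 were found for 3.74% of all tested genes and for 15.5% of the 1758 tested genes within the length range of the 10, whose median log2 fold change was -0.08. Of those 1758 genes, 79.4% had a log2 fold change below 0, so most genes of such lengths shared the direction. Sema5a, Plxna4, Plxna2 and Plxna1 are also the 4 longest of the 10, with 9027 to 12586 bp against 6022 to 8600 bp for the rest. The split by p within the 10 is therefore also a split by length. In tissue RNA, fewer cells of a type and less RNA per cell cannot be told apart. The fit was limma on log2(FPKM + 1) with treatment and hemisphere as factors, two-sided, with Benjamini-Hochberg adjustment over all tested genes, and its fold changes refer to that scale, which understates changes of low genes.

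Sema5a (chromosome 15, 32244919 to 32696487, plus strand, GRCm39) had the largest difference. In vehicle mice it read 9.98, 5.45, 8.41 and 4.58 FPKM in the injected hemispheres of J, L, M and AH and 5.53, 6.07, 5.08 and 4.95 FPKM in the contralateral. In R55 mice it read 6.08, 2.69, 2.88, 3.47 and 3.37 FPKM in the injected hemispheres of P, Q, R, AA and AB and 4.76, 2.9, 2.01, 5.35 and 2.62 FPKM in the contralateral. Mouse P is the highest of the R55 mice and lies among the vehicle mice, whereas Q, R and AB are low on both sides. By mouse the mean was 3.61 ± 1.26 FPKM (SD, n = 5) under R55 against 6.26 ± 1.29 (n = 4) under vehicle, and 4 of 5 R55 mice were below every vehicle mouse. The log2 fold change was -0.67 (SE 0.206, 95% interval -1.09 to -0.24, unadjusted p = 0.00328, limma adjusted p = 0.485). A lncRNA on the opposite strand, Snhg18, overlaps Sema5a, at a mean of 1.35 FPKM; the kit marks strand, and whether counting used it is not given in the sources used here.

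Plxna4 (chromosome 6, 32121203 to 32565193, minus strand, GRCm39) was the one gene of the 10 whose R55 and vehicle mice did not overlap. In vehicle mice it read 12.6, 9.77, 14.9 and 10.2 FPKM in the injected hemispheres of J, L, M and AH and 9.79, 11.2, 14.8 and 10.6 FPKM in the contralateral. In R55 mice it read 9.09, 9.11, 7.69, 8 and 9.05 FPKM in the injected hemispheres of P, Q, R, AA and AB and 8.96, 6.86, 7.88, 10.6 and 6.61 FPKM in the contralateral. Single libraries overlapped, through the contralateral hemisphere of AA, but the mean of each R55 mouse (7.78 to 9.29 FPKM) was below that of each vehicle mouse (10.4 to 14.9 FPKM). All R55 mice were below all vehicle mice for 1.41% of tested genes. The group means were 8.38 ± 0.717 FPKM (SD, n = 5) and 11.7 ± 2.11 (n = 4), a log2 fold change of -0.44 (SE 0.136, 95% interval -0.71 to -0.16, unadjusted p = 0.00346, limma adjusted p = 0.488). Plxna4 has an opposite-strand neighbour within its bounds as well, Plxna4os1, at a mean of 0.344 FPKM.

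Plxna2 (chromosome 1, 194300526 to 194499177, plus strand, GRCm39) and Plxna1 (chromosome 6, 89288589 to 89339619, minus strand) showed smaller differences. Plxna2 read 12.6, 16.2, 13.5 and 13.6 FPKM in the injected and 10.4, 18.1, 15.2 and 15 FPKM in the contralateral hemispheres of vehicle mice J, L, M and AH. In R55 mice P, Q, R, AA and AB it read 11.9, 14.6, 11.2, 10.9 and 11.7 FPKM on the injected side and 12.2, 8.24, 11, 12.2 and 9.77 FPKM on the other. The vehicle mice spread widely, from 11.5 to 17.1 FPKM by mouse, and mouse J lies among the R55 mice (10.7 to 12.1). The means of 11.4 ± 0.509 FPKM (SD, n = 5) and 14.3 ± 2.31 (n = 4) gave a log2 fold change of -0.30 (SE 0.115, unadjusted p = 0.0136, limma adjusted p = 0.552). Plxna1 read 15.3, 17.1, 20.6 and 16.2 FPKM in the injected and 12.6, 20.1, 22.5 and 17.4 FPKM in the contralateral hemispheres of the vehicle mice, in the same order. In the R55 mice it read 15.6, 18, 14.3, 14 and 17.4 FPKM on the injected side and 14.5, 10.1, 13.7, 14.9 and 12.5 FPKM on the other. The high values are those of M on both sides and of L on the contralateral, and J lies among the R55 mice. For Plxna1 the means were 14.5 ± 0.482 and 17.7 ± 3.2 FPKM, with a log2 fold change of -0.27 (SE 0.127, unadjusted p = 0.0439, limma adjusted p = 0.584), and 1 of 5 R55 mice was below every vehicle mouse.

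The other 6 genes had unadjusted p of 0.18 or more. Plxnb3, on the X chromosome (72800620 to 72816120, plus strand, GRCm39) and found mainly in oligodendrocytes, had a log2 fold change of -0.22 (95% interval -0.56 to 0.11). Plxnc1 (chromosome 10, 94626728 to 94780877, minus strand) had -0.16 (-0.42 to 0.11), Plxnb1 (chromosome 9, 108923419 to 108950427, plus strand) -0.11 (-0.49 to 0.26) and Plxna3 (X, 73372672 to 73388295, plus strand) -0.10 (-0.29 to 0.10). Plxnb2 (chromosome 15, 89039749 to 89065211, minus strand) had -0.05 (-0.24 to 0.15) and Plxnd1 (chromosome 6, 115931772 to 115972286, minus strand) 0.00 (-0.28 to 0.29). Plxnd1 means were 16.5 ± 2.88 FPKM under R55 and 16.4 ± 2.59 under vehicle, and the interval leaves room for a difference in either direction.

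The lower values were set beside transcript length, mouse and hemisphere. Fold changes over all tested genes went with transcript length, with a Spearman rho of -0.49 over 12976 genes, which are not independent replicates; the longest 648 genes, with a median length of 10054 bp, had a median log2 fold change of -0.15. With the trend of log2 values on length removed from each library, Sema5a had -0.50 (unadjusted p = 0.00908), Plxna4 -0.24 (0.0238), Plxna2 -0.14 (0.0822) and Plxna1 -0.15 (0.122), so 2 genes in place of 4 had an unadjusted p under 0.05, where 3.61% of all genes did in the lower direction. With 1 value per mouse, 3 genes did, Sema5a (0.0217), Plxna4 (0.0239) and Plxna2 (0.0264), against 1.79% of all tested genes in that direction. Without vehicle mouse L, 2 genes did, against 3.3% of all tested genes. In the contralateral hemisphere alone, which received no injection, there were 5 (Sema5a, Plxna4, Plxna2, Plxna1 and Plxnc1, against 4.74% of all tested genes), and in the injected hemisphere alone 1 (Sema5a, at a log2 fold change of -0.77, against 0.563%). Deviations of single libraries also went with transcript length. The Spearman rho was -0.70, -0.44, -0.33, 0.05 and 0.18 in contralateral R55 libraries Q, AB, AA, R and P. Contralateral vehicle libraries J, L, M and AH had -0.14, 0.30, 0.35 and 0.41. Injected R55 libraries had -0.16 to 0.41 and injected vehicle libraries 0.13 to 0.24. The part of this trend in these counts was not tested. Whether the drug difference differed between hemispheres was tested by an interaction, which no gene passed. Mouse labels have 1 letter or 2, and what the difference stands for is not given. Among the 9 mice with a 1-letter label, Sema5a had -0.80 and Plxna4 -0.50; the means of the mice with 2 letters (2 R55, 1 vehicle) differed by -0.32 and -0.27. Without R33 mouse AD, whose libraries enter the shared estimate of the spread, Plxna4 passed at the same fold change of -0.44 (limma adjusted p = 0.0394, over all alternatives 0.0394 to 1), and Sema5a came to 0.0623, where 0.385% of all tested genes passed.

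**Figure D2:**
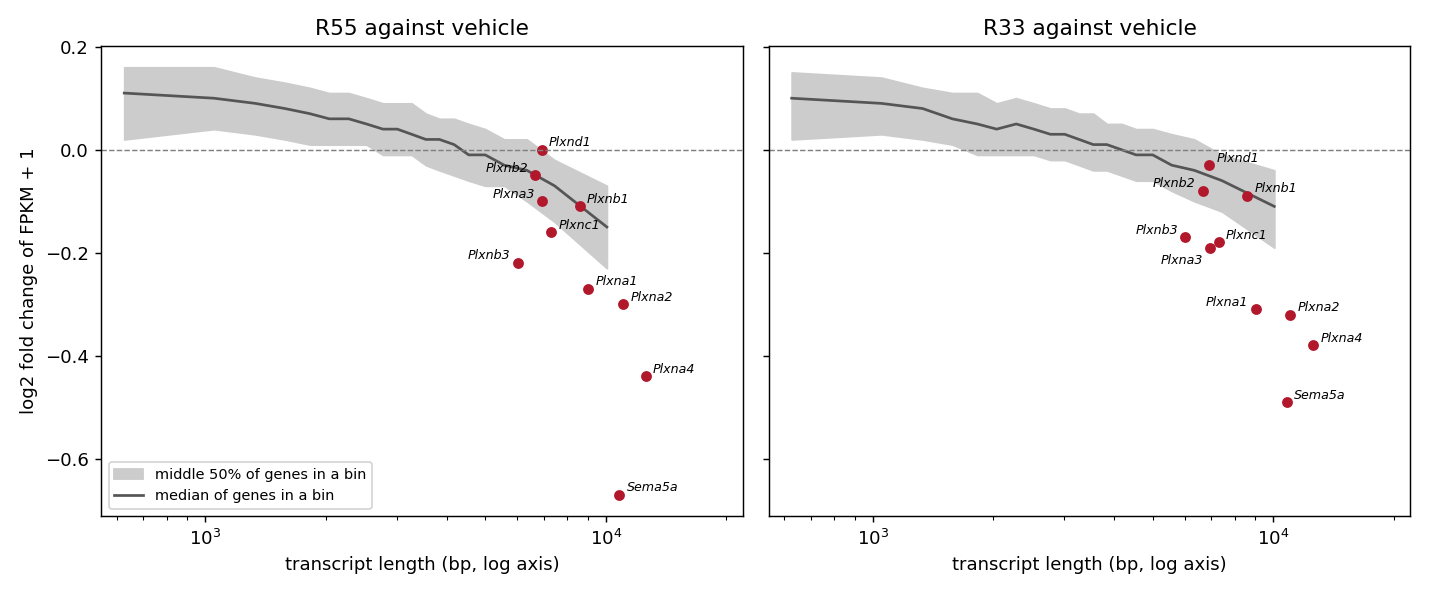
Log2 fold change (FPKM + 1) against vehicle by transcript length in bp on a log axis, for R55 and R33. The line is the median and the band the middle 50% of all tested genes in 20 bins of length, and points are Sema5a and the plexins. Medians pass from above 0 for short genes to below 0 for long ones; Sema5a, Plxna4, Plxna2 and Plxna1 lie below the lower quartile of the longest bin (-0.23 for R55, -0.19 for R33), and Plxnb1 lies on the line.

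The second comparison asks the same of R33, with the same vehicle mice, so that the values cannot count as separate evidence and are set side by side. All 10 log2 fold changes were below 0, as were 42.5% of all tested genes and 77% of those in the length range. The median of the 10 was -0.18, against 0.02 over all tested genes and -0.07 over those in the length range. Again none passed (0% of tested genes did), and 4 had an unadjusted p under 0.05. Lower levels at that p were found for 2.68% of all tested genes and 9.22% of those in the length range. Over all tested genes the R33 fold changes went with transcript length as well, with a Spearman rho of -0.46. The 4 genes, named next, are again the 4 longest of the 10. Plxna2 had a log2 fold change of -0.32 (unadjusted p = 0.0107), Plxna4 -0.38 (0.0116), Plxna1 -0.31 (0.0249) and Sema5a -0.49 (0.0273), all with a limma adjusted p of 0.834. The values of Sema5a in the injected hemispheres of K, N, O, AD and AE were 6.76, 3.96, 6.78, 1.23 and 7.3 FPKM, and in the contralateral hemispheres of K, N, O and AD 4.46, 3.7, 3.31 and 2.56 FPKM. On the injected side K, O and AE lie among the vehicle mice and AD is far below, and on the contralateral side K comes nearest to the vehicle libraries, which start at 4.95 FPKM. Plxna4 read 11.7, 8.74, 11.7, 4.3 and 13 FPKM in the injected hemispheres of K, N, O, AD and AE and 8.95, 8.74, 8.23 and 6.56 FPKM in the contralateral hemispheres of the first 4, and AD is again the lowest on both sides. Without mouse AD, 8 of the 10 log2 fold changes were below 0 (47.3% of all tested genes were), with Plxnb1 at 0.11 and Plxnd1 at 0.01, and the median was -0.12. No gene then had an unadjusted p under 0.05, where 1.7% of all tested genes were lower at that level: Plxna2 had -0.21 (0.0508), Plxna4 -0.20 (0.0618), Plxna1 -0.18 (0.117) and Sema5a -0.26 (0.151). With 1 value per mouse, 1 gene did, Plxna2 (0.0198, against 1.29% of all tested genes), and without vehicle mouse L there were 2 (against 1.66%).

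R55 and R33 were given at the same concentration and taken at the same time, and no difference between them passed. For the 10 genes, 1 comparison each, the log2 fold change of R55 against R33 ran from -0.17 (Sema5a, 95% interval -0.58 to 0.24) to 0.09 (Plxna3, -0.10 to 0.28), with adjusted p of 1 throughout and none at an unadjusted p under 0.05 (1.15% of all tested genes were, and 0% passed). The interval of Plxnb1 (-0.39 to 0.35) is among the wider ones after that of Sema5a, and that of Plxnb2 (-0.15 to 0.22) among the narrower, so the compounds are not shown to act alike. Without mouse AD, 9 of the 10 log2 fold changes were below 0, with a median of -0.09 against 0.02 with it. The median over all tested genes without AD was 0.02. Sema5a then had -0.41 (unadjusted p = 0.0221) and Plxna4 -0.23 (0.0286), with limma adjusted p of 0.447 and 0.467. The shares of all tested genes below 0 or at that level without AD are not given here. With AD, 46.6% of all tested genes and 63% of those in the length range were below 0. Over 4 choroid plexus markers (Ttr, Kl, Folr1 and Clic6), from tissue outside the cortex, the summed level ran from 4.08 to 154 FPKM in R55 libraries and from 6.94 to 1661 FPKM in R33 libraries, and from 5.97 to 1136 in vehicle libraries. For R55 against R33, 3 of the 4 were lower at an unadjusted p under 0.05 (median log2 fold change -1.02, down to -2.32) and none was called; their part in these comparisons was not tested.

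**Figure D3:**
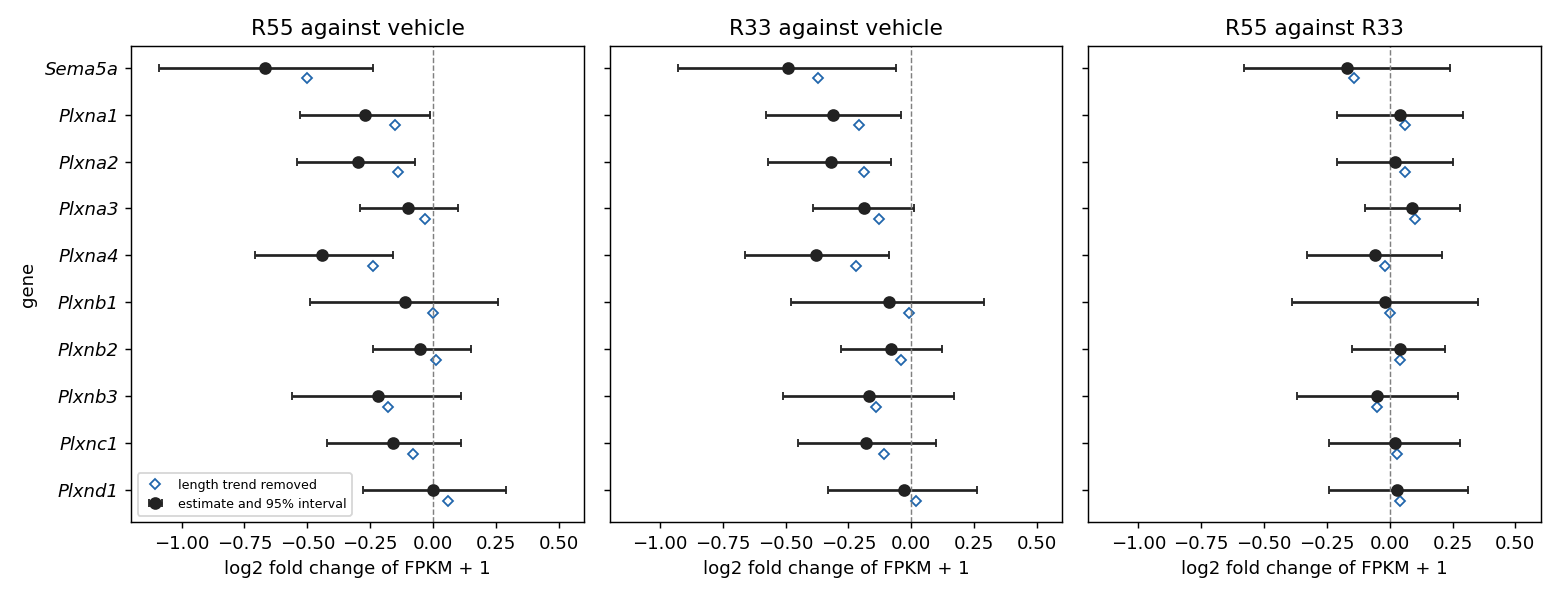
Log2 fold change (FPKM + 1) of each gene with its 95% interval in 3 comparisons, as points with bars, and after removal of the length trend, as diamonds. Intervals of Sema5a, Plxna4, Plxna2 and Plxna1 end below 0 for both compounds against vehicle, intervals of every gene include 0 for R55 against R33, and against vehicle the diamonds of those 4 genes lie nearer to 0 for both compounds.

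Between the injected and the contralateral hemisphere no gene of the 10 passed. Log2 differences ran from -0.14 (Plxna3, unadjusted p = 0.0698) to 0.22 (Sema5a, 0.197), all with a limma adjusted p of 1, and no gene had an unadjusted p under 0.05, against 3.47% of all tested genes (0% passed). With the hemispheres of a mouse treated as a block, Plxna3 had an unadjusted p of 0.0628, and with their correlation modelled 0.0368 (limma adjusted p = 0.68, over all alternatives 0.347 to 1); it was under 0.05 in 8 of 28 alternatives. Plxna3 was lower on the injected side in 9 of 13 mice. Sema5a was under 0.05 in 1 of 28 alternatives, with 0.36 in the mice with a 1-letter label (unadjusted p = 0.0276, limma adjusted p = 0.983). Plxnc1 is the gene for which the groups differed most in this respect. Its injected minus contralateral difference was -0.37 ± 0.418 (SD of log2 differences, n = 4) in vehicle mice, -0.29 ± 0.273 (n = 4) in R33 mice and 0.22 ± 0.163 (n = 5) in R55 mice. In the vehicle mice the limma fit gave an unadjusted p of 0.0447, which did not pass after adjustment. In vehicle mice J and L the contralateral side had 13.4 and 10.6 FPKM against 7.69 and 6.02 on the injected side, while 4 of 5 R55 mice had more on the injected side, by 0.42 at most. The interaction of R55 with hemisphere was 0.59 for Plxnc1 (SE 0.234, 95% interval 0.11 to 1.07, unadjusted p = 0.018, limma adjusted p = 0.999), where 1.84% of all tested genes had an unadjusted p under 0.05 and 0% passed. No other of the 10 genes had an unadjusted p under 0.05 in either interaction, and for R33 0.378% of all tested genes did.

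**Figure D4:**
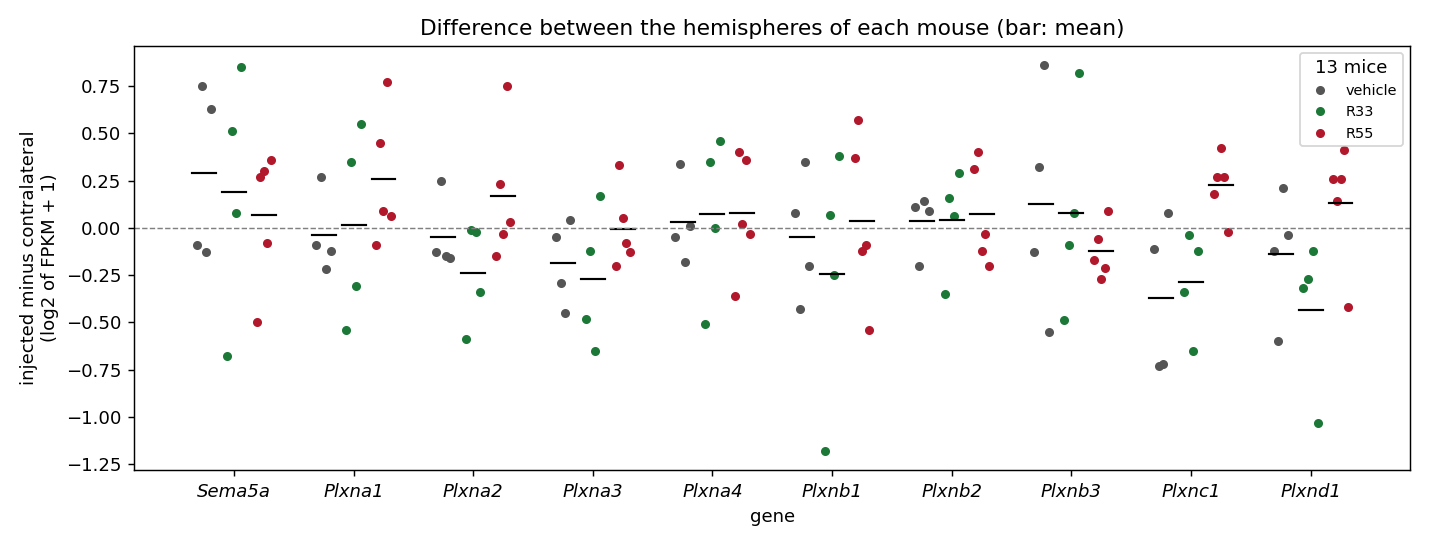
Injected minus contralateral log2(FPKM + 1) of each gene in the 13 mice with both hemispheres, by treatment, with the mean as a bar. Points lie on either side of 0 for every gene; for Plxnc1, 4 of 5 R55 points are above 0 and 7 of 8 vehicle and R33 points below.

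The partners of the plexins were taken as 3 lists. Of 20 semaphorins, 19 passed the filter of a mean of 1 FPKM. None passed the test in any comparison, with a median log2 fold change of -0.05 for R55 and -0.05 for R33 against vehicle. For R55, 3 were lower at an unadjusted p under 0.05, as were 3.74% of all tested genes (log2 fold change and that p in brackets). They were Sema5a, already given above, Sema5b (-0.27, 0.0123), the closest relative of Sema5a, and Sema3e (-0.46, 0.03), the ligand of plexin D1. The most abundant semaphorin was Sema7a, the ligand of plexin C1, at a mean of 76.2 FPKM, followed by Sema6b (35 FPKM) and Sema4d (13.8 FPKM), the ligand of plexin B1, and their log2 fold changes for R55 were 0.16, -0.05 and -0.01. For R33, Sema5a and Sema4a (-0.20, 0.0393) were lower at that level, as were 2.68% of all tested genes. Without mouse AD the R33 median was 0.00 with 1 semaphorin lower, as were 1.7% of all tested genes. With 1 value per mouse 1 was lower for R55 (1.79% of all tested genes were) and 0 for R33 (1.29%).

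Of 14 co-receptors and partners, 12 were tested, with medians of -0.20 (R55) and -0.22 (R33) and none called. The most abundant were the cell adhesion molecules and proteoglycan Sdc3 (58.7 FPKM), Nrcam (50.4) and L1cam (24.5). One for each drug had an unadjusted p under 0.05: the glypican Gpc4 (-0.45, 0.0406) for R55 and L1cam (-0.28, 0.0463) for R33. Of all tested genes, 3.74% were lower at that p for R55 and 2.68% for R33. With 1 value per mouse no co-receptor had an unadjusted p under 0.05 for either drug, and without mouse AD the R33 median was -0.08 with none at that level, while 3 were lower for R55. Of 31 effectors inside the cell, 30 were tested, none was called, and the medians were 0.04 and 0.02, near those of all tested genes (0.03 and 0.02). Pak1 (162 FPKM), Rac1 (146) and Mras (83.5) were the most abundant. For R55, Rnd1, a small GTPase that binds plexins, had a log2 fold change of 0.39 (0.00815), the actin kinase Limk1 0.18 (0.0382) and the semaphorin response protein Crmp1 -0.22 (0.0149). For R33 the actin-oxidising enzyme Mical2 had -0.22 (0.03). Of all 12976 tested genes, 485 were lower and 611 higher at an unadjusted p under 0.05 for R55, and 348 and 414 for R33. The counts of co-receptors and effectors are therefore not set apart from all tested genes. Between the drugs, and between the hemispheres, no list member had an unadjusted p under 0.05. Without mouse AD, 3 semaphorins were lower at that level for R55 against R33, and of the effectors 1 was lower and 4 were higher. The shares of all tested genes at that level for R55 without AD are not given here. Calls at an adjusted p under 0.05 for R55 against vehicle went from 0.00771% to 0.385% of all tested genes without AD. The list counts without AD are therefore not set apart from all tested genes. With 1 value per mouse, 1 effector was lower (1.79% of all tested genes were) and 1 higher for R55 against vehicle, and none for R33.

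Levels of cell type markers were set beside those of the genes. The 3 markers of excitatory neurons (Slc17a7, Camk2a and Neurod6) summed to between 1157 and 2009 FPKM in every library. The 4 markers of striatal neurons, from below the cortex, summed to between 30.1 and 193 FPKM. Over 5 marker lists (inhibitory neurons, oligodendrocytes, astrocytes, microglia and endothelial cells), 10 genes and both mouse means and hemisphere differences, 100 relations were computed, with a permutation test each (100000 permutations) and Benjamini-Hochberg adjustment over them. Of these, 7 passed for Pearson's r, and 6 of them were with B class plexins or Plxnc1. Mouse AE enters the mouse means by its injected side alone.

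Plxnb3, the oligodendrocyte plexin, followed the 6 oligodendrocyte markers, and did so between the sides of the same brain. Over 13 mice its injected minus contralateral difference had a Pearson r of 0.88 (permutation p = 5.0e-05, adjusted p = 0.005) and a Spearman rho of 0.88 (permutation p = 1.5e-04, adjusted p = 0.0075) with theirs. The r was 0.75 without the 2 mice farthest out and 0.91 within the 9 mice with a 1-letter label. Over the 14 mouse means r was 0.74 (permutation p = 0.00209, adjusted p = 0.0378) and rho 0.58 (permutation p = 0.033, adjusted p = 0.183). Plxnc1 went the other way between hemispheres, with r = -0.80 (permutation p = 8.2e-04, adjusted p = 0.0337) and rho = -0.80 (permutation p = 0.00156, adjusted p = 0.0312), -0.86 without the 2 farthest mice and -0.84 within the 1-letter mice. Oligodendrocyte markers summed to 509 to 2037 FPKM in contralateral vehicle libraries and 869 to 1614 FPKM in injected R55 libraries (1207 to 1589 and 1055 to 1846 FPKM on the other sides), and their log2 difference between hemispheres ran from -0.744 to 0.011 in R55 mice and from -0.684 to 1.578 in vehicle mice. The part of these markers in the Plxnc1 interaction given above was not tested.

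Plxnb2 followed 5 astrocyte and 5 microglia markers. Over mouse means r was 0.77 with astrocyte markers (permutation p = 0.00101, adjusted p = 0.0337) with a rho of 0.86 (permutation p = 1.3e-04, adjusted p = 0.0075), 0.89 without the 2 farthest mice and 0.73 within the 1-letter mice. With microglia markers r was 0.79 (permutation p = 0.00153, adjusted p = 0.0378) and rho 0.80 (permutation p = 0.00107, adjusted p = 0.0267), 0.68 without the 2 farthest and 0.74 within the 1-letter mice. Between hemispheres Plxnb2 and the astrocyte markers had r = 0.77 (permutation p = 0.00227, adjusted p = 0.0378) and rho = 0.79 (permutation p = 0.00198, adjusted p = 0.0324), 0.77 without the 2 farthest and 0.78 within the 1-letter mice. By rho alone 3 more relations passed between hemispheres: Plxnb2 with microglia markers (rho = 0.81, r = 0.70), Plxnb1 with microglia markers (rho = 0.77, r = 0.58) and Plxnc1 with inhibitory neuron markers (rho = -0.79, r = -0.72).

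Plxna4 had lower mouse means where the 5 markers of inhibitory neurons were higher. Its r was -0.74 (permutation p = 0.00304, adjusted p = 0.0434) and its rho -0.62 (permutation p = 0.0204, adjusted p = 0.15), and r was -0.71 within the 1-letter mice. Without the 2 mice farthest out r was -0.36, so the relation rests on them, and between hemispheres it was -0.24. The median log2 fold change of these markers for R55 against vehicle was 0.12, with 2 of 5 higher at an unadjusted p under 0.05 (up to 0.47) and none called, and their part in the Plxna4 difference was not tested. Sema5a, Plxna1, Plxna2, Plxna3 and Plxnd1 passed with none of the 5 lists. Nearest among these came Plxnd1, lower in mouse means where oligodendrocyte markers were higher. Its r was -0.69 (permutation p = 0.00747, adjusted p = 0.0679) and its rho -0.70 (permutation p = 0.00692, adjusted p = 0.0715).

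**Figure D5:**
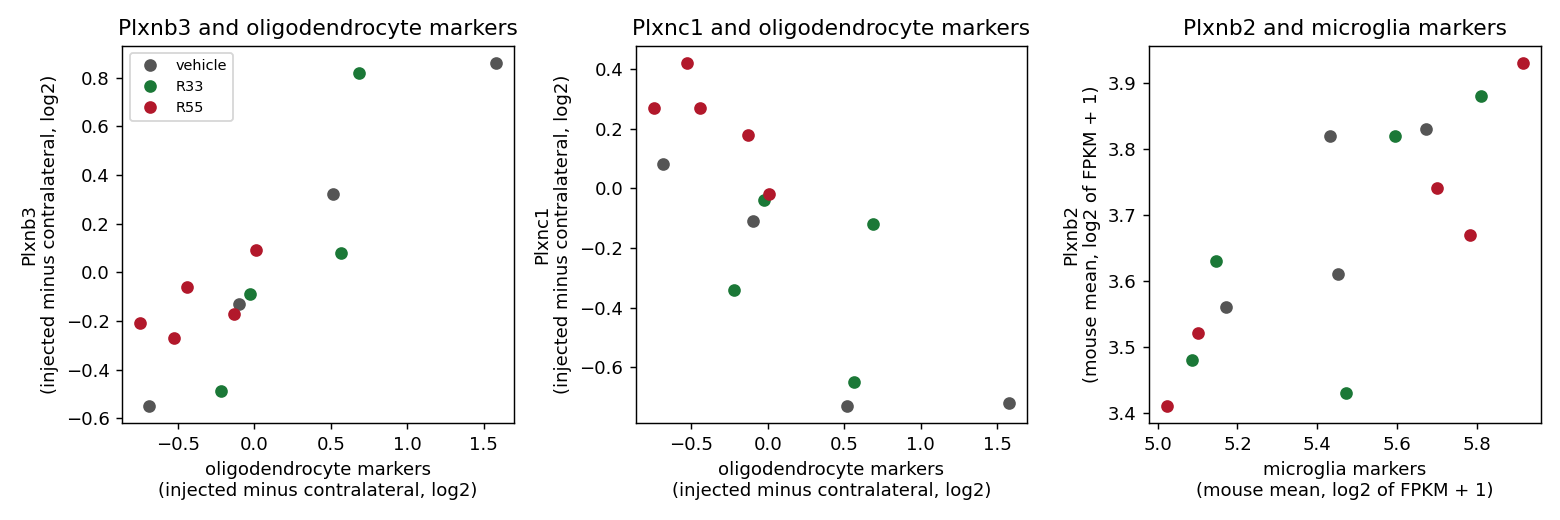
Plxnb3 and Plxnc1 against the mean of the oligodendrocyte markers, as injected minus contralateral log2(FPKM + 1) in 13 mice, and Plxnb2 against the mean of the microglia markers, as mean log2(FPKM + 1) of 14 mice, coloured by treatment. Plxnb3 goes up with the markers and Plxnc1 down, and Plxnb2 goes up with the microglia markers in all 3 treatments.

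Among themselves the genes fell into sets that moved together from mouse to mouse, given here as a description over 14 mouse means that share treatment, dissection and depth. Sema5a and Plxna4 had a Pearson r of 0.91 (0.78 over the 13 hemisphere differences), Plxna1 and Plxna4 0.87 (0.88), Plxna1 and Plxna2 0.82 (0.69), and Plxna3 and Plxnc1 0.84 (0.75). Plxnb1 and Plxnb2 had 0.45 over mice but 0.93 over hemisphere differences. Plxnb3 had 0.75 with Plxna4, 0.73 with Plxna1 and 0.72 with Sema5a over mice. Over hemisphere differences these were 0.31, 0.22 and 0.32. Plxnd1 had values between -0.37 (with Plxnb3) and 0.61 (with Plxnc1). All values of r over mice include mouse AD, and the part of that mouse and of transcript length in them was not tested. By r over mouse means, the genes most like Sema5a were Slc7a14 (0.949, 8840 bp), Rabgap1l (0.944, 9489 bp) and Nexmif (0.936, 10961 bp), for Plxna4 Gnaq (0.967), Setbp1 (0.957) and Grin2b (0.955), for Plxna2 Wdr7 (0.958), Sorl1 (0.954) and Celsr2 (0.949), and for Plxna1 they included Nfasc (0.926). The genes nearest Plxnb1 were the astrocyte genes Ptprz1 (0.968) and Slc1a2 (0.968), with Ntrk2 (0.943). With the astrocyte marker list, however, Plxnb1 did not pass. Its r there was 0.39 over mouse means (permutation test, adjusted p = 0.469) and 0.71 over hemisphere differences (0.061). Those nearest Plxnb3 were Unc5b (0.933), Mcam (0.926) and Gpr37 (0.92, a receptor of myelinating cells). Plxnb2 was nearest Plxdc2 (0.945), Ttc28 (0.914) and the macrophage gene Mpeg1 (0.902). Genes near Plxnc1 included Nwd2 (0.918) and Mpdz (0.89), Plxna3 was nearest Plagl1 (0.884), Nwd2 (0.863) and Cad (0.857), and Plxnd1 was nearest Nptxr (0.889), Gm6277 (0.888) and Lrrk2 (0.849).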

How the data were processed

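RNA was extracted, made into stranded mRNA libraries, sequenced and aligned (HISAT2, GRCm39) by the authors; the counting tool and its annotation are not given in the sources used here. The deposited values are FPKM in a table of 32 libraries, of which 27 were taken and 5 were not used here. Of values above 0, 100.0% were whole fragments within 0.01, from which transcript lengths and fragments were recovered.

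Samples were grouped by their labels, and hemispheres paired by mouse, since they come from the same animal (mean correlation of deviations 0.394 over 13 pairs, -0.0787 to 0.648). Genes averaging 1 FPKM or more (12976) were fitted with limma 3.58.1 (R 4.3.3) on log2(FPKM + 1), with an intensity trend. Libraries of 1 mouse enter separately, so that p-values are smaller than with 1 value per mouse, which is given as well. Benjamini-Hochberg adjustment was over all tested genes, with calls under 0.05. The script was tested on simulated counts, drawn independently for each library without a mouse effect or a length trend. That test therefore does not bear on the handling of mice or length. Alternatives changed the scaling, filter, pseudocount, handling of mice, label series, model, and length and GC trends, left out each mouse in turn, and ran voom on recovered fragments. Positions and GC content came from GENCODE M39, matched by symbol for 97.6% of tested genes. Named were the 10 genes, of each partner list the 3 most abundant and up to 3 per comparison with the smallest unadjusted p under 0.05, and the 3 genes most like each, apart from a few that are not reported here; the excitatory neuron list is therefore given without 1 marker and left out of the correlations. The genes, lists and tests were chosen with earlier results of these data known. Permutation tests used numpy 2.4.6 and scipy 1.17.1.

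The marker lists were excitatory neurons, inhibitory neurons, oligodendrocytes, oligodendrocyte precursors, astrocytes, microglia, endothelial cells, mural and fibroblast cells, striatal neurons, choroid plexus and red blood cells. No marker passed against vehicle for either drug. The median log2 fold changes for R55 were -0.06, 0.12, 0.11, -0.13, 0.13, 0.04, -0.11, -0.03, -0.23, -0.51 and 0.55 in that order, and for R33 -0.13, 0.11, 0.19, -0.19, 0.13, -0.07, -0.19, -0.07, 0.18, 0.71 and 0.39. Of the red blood cell list only Alas2 passed the filter, and the 4 globin genes were listed at or near 0 in every library.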

Additional observations from a re-analysis of the deposited data

Results flagged for a closer look

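In R55 mouse AB, the contralateral library had 1.83 FPKM of Plxna3, while the other 4 contralateral R55 libraries had 2.53 to 2.81 FPKM. On a log2 scale, the gap to the nearest library was 0.749 of the range of the 5, beyond the 95% critical value of Dixon's test. It was the only 1 of 60 groups of 4 or 5 libraries set apart in this way over the 10 genes, and chance sets apart about 5% of groups.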

How the results depend on the processing

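Under 31 alternatives per drug comparison, no gene was called for R33 against vehicle or R55 against R33, and the count for R55 against vehicle ran from 0 to 1 when mice were left out in turn (Plxna4, without AD). With each animal as a replicate block, 0 of the 10 genes were called between hemispheres or in either interaction, with a smallest adjusted p of 0.829 between hemispheres, and Plxnc1 had an unadjusted p of 0.00503 for R55 with hemisphere (limma adjusted p = 0.806); the block changed no call. For R55 against vehicle, the log2 fold change of Sema5a ran from -0.83 to -0.50 with an unadjusted p under 0.05 in all 31, that of Plxna4 from -0.50 to -0.24 in 30, that of Plxna2 from -0.41 to -0.14 in 27 and that of Plxna1 from -0.42 to -0.12 in 16; for R33 they passed that level in 21, 26, 27 and 21. The number of genes at that level, 4 for either drug, was 2 for R55 with the length trend removed or without L, and 1 with the injected hemisphere alone. For R33 the number was 2 with the correlation within mice (0.347) modelled, with 1-letter mice alone or without L (1.66% of all tested genes). It was 1 with 1 value per mouse (1.29%) or the injected hemisphere alone, and 0 without AD (1.7%). Fits with the length trend removed, or the label series as a covariate, and the correlation within mice modelled were added after the data were seen and gave 2 and 3 genes for R55 and 1 and 2 for R33. Where no percentage stands beside a count, the share of all tested genes is not given here, and the count is not set apart from it. Of 1210 values of single genes under an alternative, 1144 kept their sign and side of the threshold, 65 changed sign with an unadjusted p of 0.05 or more and 1 passed the threshold. At least 220 fragments lay behind each value; the spread between mice was not compared with counting error.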
